A study of Canis lupus familiaris with 6 samples.

Results

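The genes described here are 10 regulators and maturation genes of the red cell lineage. They are the transcription factors KLF1, GATA1, TAL1, LMO2, GFI1B and NFE2, the erythropoietin receptor EPOR, and the maturation genes AHSP, BPGM and TRIM58. They were chosen by gene symbol, and all 10 were found among the 31512 genes of the deposited table. The samples were whole blood of healthy adult Beagle dogs aged 1.5 years, 3 in a control group (CONT) and 3 in a CPP-Se group, with 1 library per dog. For 30 days each dog received 30 g of a snack after the same maintenance food, and whether this was per day or per meal is not stated. The snack held 0.03% CPP-Se (a casein phosphopeptide-selenium chelate) in the CPP-Se group and none in the control group. The dogs had been acclimatized with the snacks before these 30 days. The libraries come from blood of day 30, so each dog gives a single time point here and no value from before feeding. The comparison asks which blood transcripts differ between dogs fed with and without CPP-Se.

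Red cells form in the bone marrow from progenitors that respond to erythropoietin, and the youngest ones to enter blood, the reticulocytes, still carry RNA. GATA1 binds DNA together with TAL1, LMO2 and their partner LDB1, and this complex, with KLF1, turns on globin, heme and membrane genes. GFI1B and NFE2 act in red cell precursors and also in the megakaryocytes that make platelets. In whole blood, transcripts of such genes can come from reticulocytes, platelets and some white cells, and in bulk RNA fewer cells of a type and less RNA per cell cannot be told apart.

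Values are FPKM, which count fragments per gene after division by its length and by a library size. The libraries held 6598173 to 8067034 reads on genes per dog, of which 8 hemoglobin genes took 36.6% in CPP-Se replicate 2 and 48.7% to 55.9% in the other dogs. The same replicate stood apart in scaling: the library size behind its FPKM was 1.65 times its reads on genes, against 0.882 to 1.05 times in the other dogs. On the deposited FPKM, median-of-ratios factors (each dog's median ratio to the geometric mean over dogs) were 0.992 to 1.007. The FPKM were thus already level between dogs on that measure, CPP-Se replicate 2 included. The table held 15 of 20 listed platelet markers, 13 of 21 neutrophil markers and 14 of 15 monocyte markers, and none of those held was at 0 in every dog. Differences were tested in the 9847 genes whose mean FPKM reached 1 by limma on log2(FPKM + 1), two-sided, with Benjamini-Hochberg adjustment over these genes. All 10 genes passed this filter. A differentially expressed gene (DEG) needed an adjusted p under 0.05 together with a change of 1.5-fold or more.

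None of the 10 genes was a DEG between the groups, against 3 of the 9847 genes tested (0.0305%). Of the other models, a negative binomial model of the reads called LMO2 (adjusted p = 0.000696) among 434 genes, and limma-voom on the same reads, weighted by sample quality, called it (adjusted p = 0.0416) among 156. LMO2 was the only one of the 10 with an unadjusted p under 0.05, a limit that 16% of all genes tested passed (6.87% higher and 9.1% lower in the CPP-Se dogs). It was also the only one whose FPKM did not overlap between the groups, as in 23% of all genes tested (12.6% lower and 10.4% higher in the CPP-Se dogs). The log2 fold change was below 0 for 7 of the 10 genes, the 6 transcription factors and EPOR, and above 0 for AHSP, BPGM and TRIM58. Over all genes tested 50.4% lay below 0. The median log2 fold change of the 10 genes was −0.27, beside −0.00 over all genes tested, and without CPP-Se replicate 2 it was 0.05. The direction of this median therefore rests on that dog.

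**Figure D1:**
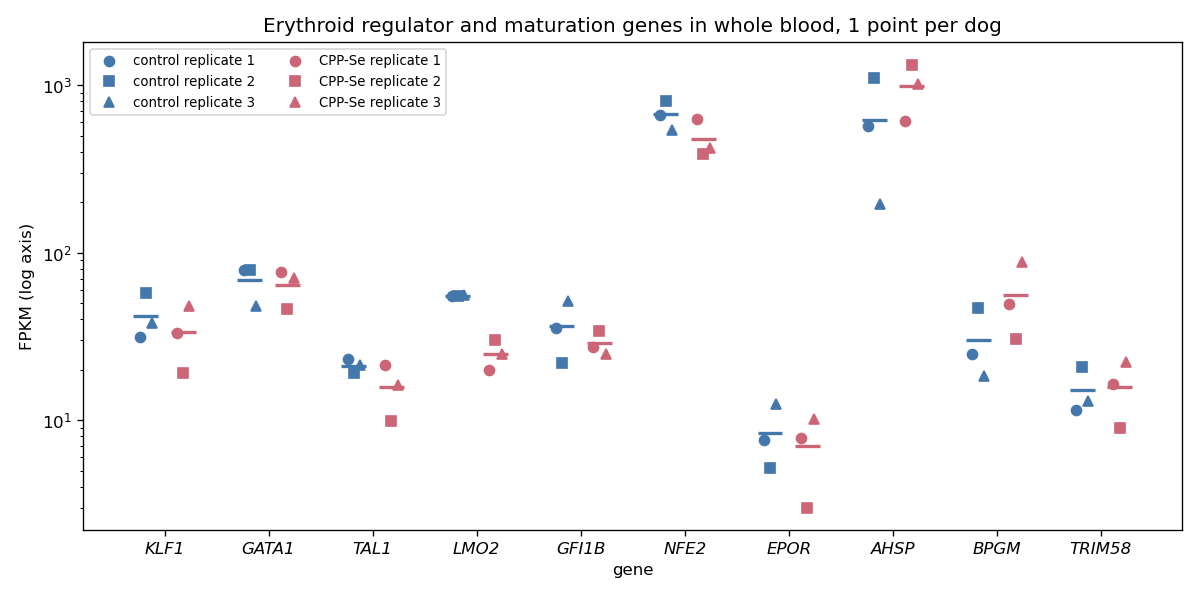
FPKM of the 10 genes on a log axis, with 1 point per dog (circle, square and triangle for replicates 1, 2 and 3) and a bar at each group mean. LMO2 is the gene whose points separate by group, from 55.0 to 55.9 in the control dogs and from 20.1 to 30.0 in the CPP-Se dogs, and AHSP has the widest spread, from 194 to 1329.

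The levels of the 10 genes spanned a wide range. AHSP had the highest mean over the 6 dogs, 805 FPKM, followed by NFE2 with 575, so these genes lay above 99.5% and 99.2% of the genes tested. GATA1 (66.7), BPGM (43.1), LMO2 (40.2), KLF1 (37.9) and GFI1B (32.6) formed a middle group in mean FPKM. TAL1 (18.5), TRIM58 (15.5) and EPOR (7.72) were the lowest in mean FPKM. Of the 9 pairs of neighbours in this order, NFE2 over GATA1, GFI1B over TAL1 and TRIM58 over EPOR kept the order in 6 of 6 dogs. Their mean differences in log2(FPKM + 1) were 3.08, 0.77 and 0.96, each with an exact sign-flip permutation p of 0.0312, the smallest that 6 dogs allow, and 0.0938 after adjustment over the 9 pairs. GATA1 lay above BPGM in 5 of 6 dogs, and AHSP above NFE2 in 3. The other 4 neighbours kept their order in 3 or 4 dogs and did not differ beyond their spread.

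LMO2, the LIM-domain adaptor that bridges TAL1 and GATA1 in their shared complex, lies on chromosome 18 (33876774 to 33885902, plus strand, ENSCAFG00000007127, in the dog genome of Ensembl release 100, as do all positions here). Values below are given in the order of replicates 1, 2 and 3. LMO2 had 55.5, 55.0 and 55.9 FPKM in control, against 20.1, 30.0 and 24.8 in CPP-Se dogs. The control dogs were within a 1.02-fold range of each other, and every CPP-Se dog lay below all of them. With 164 to 210 reads per control dog, counting error alone is larger than this spread, so the closeness is not precision. The group means were 55.5 ± 0.45 and 25.0 ± 4.98 FPKM (SD, n = 3 each), a log2 fold change of −1.14 (SE 0.19, 95% interval −1.59 to −0.69), or 0.454 times the control level. By limma its unadjusted p was 0.000435, rank 28 among all genes tested, and its adjusted p was 0.138, so it did not pass the threshold. The study, which used DESeq2 at the same thresholds and called many more genes than limma did here, lists LMO2 among its changed genes. These are the same dogs, so its direction here is not independent evidence.

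The reads behind LMO2 were few, with 177, 164 and 210 in control, against 60, 187 and 71 in CPP-Se dogs on 467 bases of gene length. CPP-Se replicate 2 thus held more LMO2 reads than 2 of the control dogs, in a library with the most reads on genes. Per 1000000 reads on genes the control dogs had 26.8, 24.0 and 27.4 and the CPP-Se dogs 8.85, 23.2 and 10.2, which still did not overlap, though CPP-Se replicate 2 lay close to the lowest control. Per 100000 hemoglobin reads LMO2 reads were 5.51, 4.52 and 5.57 in control, against 1.61, 6.34 and 1.83 in CPP-Se dogs, and the groups overlapped. Without CPP-Se replicate 2 the log2 fold change was −1.28.

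Monocyte markers were lower in the same dogs as LMO2. Of the 13 monocyte markers tested, 10 had an unadjusted p under 0.05 by limma and lay lower in the CPP-Se dogs without overlap, 6 of them genes of the study's own changed list. The summed FPKM of all monocyte markers in the table (sums here include list genes under the filter) was 923 to 1077 in the control dogs and 445 to 532 in the CPP-Se dogs, with a median log2 fold change of −0.82. VCAN had the lowest value (−1.46) and CX3CR1 the highest (−0.03). Of the 11 neutrophil markers, 7 had an unadjusted p under 0.05 by limma and 7 did not overlap, all of these lower in the CPP-Se dogs, with a median log2 fold change of −0.75 and summed FPKM of 2614 to 3434 against 1940 to 2513. None of these markers was a DEG. LMO2 and the monocyte mean separated the dogs into the same groups, so no correlation over all dogs is given, and the deviations of the dogs from their group means correlated at r = 0.317. The part of these cells in the LMO2 difference was not tested.

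**Figure D2:**
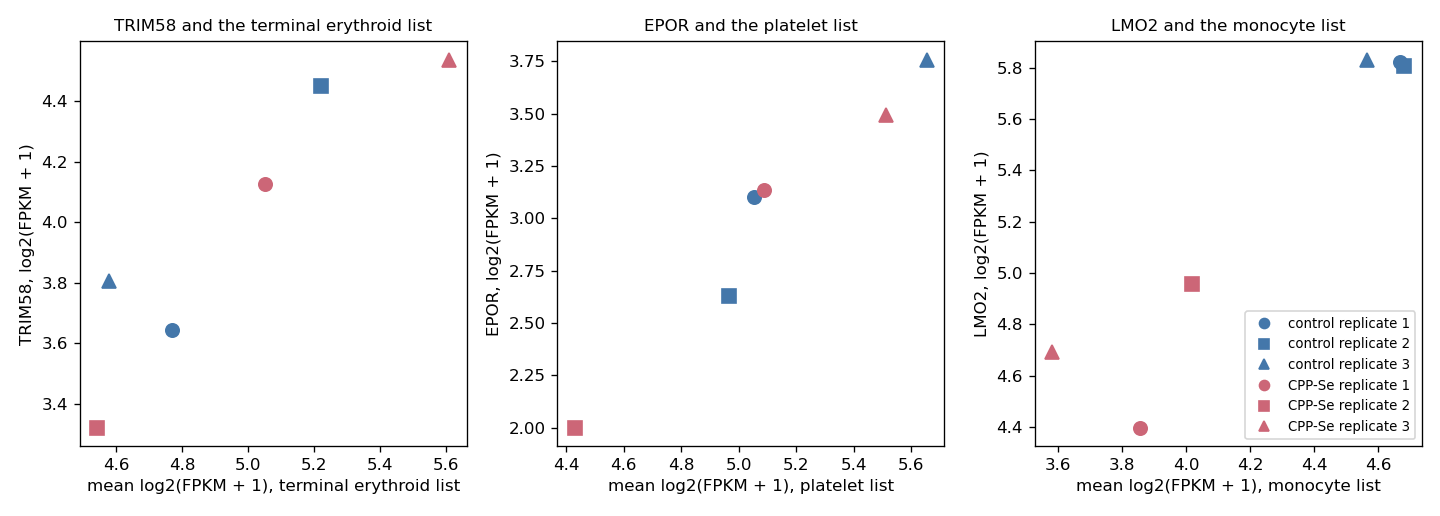
Level of TRIM58, EPOR and LMO2 (y axes, log2(FPKM + 1)) against the mean log2(FPKM + 1) of the terminal erythroid, platelet and monocyte lists (x axes), with 1 point per dog. TRIM58 and EPOR are higher where their list is higher (r = 0.919 and 0.975), while LMO2 and the monocyte list fall into 2 separate clusters of 3 dogs each.

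GATA1, the zinc-finger factor at the head of the erythroid program, lies on the X chromosome (41971582 to 41998303, plus strand, ENSCAFG00000015572). Its FPKM were 79.3, 78.9 and 48.4 in control, against 76.4, 46.3 and 70.5 in CPP-Se dogs. In FPKM each group held 2 dogs above 70 and 1 dog below 50, and the groups overlapped. Per 1000000 reads on genes GATA1 had 139, 125 and 86.0 reads in control, against 122, 129.8 and 105 in CPP-Se dogs, where CPP-Se replicate 2 was the highest CPP-Se dog instead of the lowest. The means were 68.9 ± 17.7 and 64.4 ± 15.9 (SD, n = 3 each), a log2 fold change of −0.09 (SE 0.28, 95% interval −0.74 to 0.56, adjusted p = 0.906 by limma). Scaling the FPKM to a common sum per dog turned this value to 0.06, in a scaling that moved the median of all genes to 0.13. With each dog left out it was −0.32 (without control replicate 3) to 0.13 (without CPP-Se replicate 2). GATA1 shares its locus with GLOD5 on the same strand and PCSK1N on the other, which held 0 to 6 reads per dog against 659 to 1047 on GATA1.

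KLF1, the factor that activates the adult beta-globin gene, lies on chromosome 20 (49295195 to 49298602, plus strand, ENSCAFG00000017111). Its FPKM were 31.4, 57.2 and 37.9 in control, against 33.4, 19.1 and 48.2 in CPP-Se dogs. In FPKM CPP-Se replicate 2 was the lowest of the 6 dogs and control replicate 2 the highest, while per 1000000 reads on genes CPP-Se replicates 1 and 2 were alike, at 48.4 and 48.5. The means were 42.2 ± 13.4 and 33.6 ± 14.5 FPKM (SD, n = 3 each). The log2 fold change was −0.37 (SE 0.36, 95% interval −1.20 to 0.46, adjusted p = 0.653 by limma), and from −0.67 (without CPP-Se replicate 3) to −0.03 (without CPP-Se replicate 2) with each dog left out.

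TAL1, the basic helix-loop-helix factor of the complex, lies on chromosome 15 (13449481 to 13462047, plus strand, ENSCAFG00000004032) and had 23.1, 19.2 and 21.3 FPKM in control, against 21.3, 9.90 and 16.3 in CPP-Se dogs. The control dogs were close together, and CPP-Se replicate 1 lay within their range while the other CPP-Se dogs lay below it. The means were 21.2 ± 1.93 and 15.8 ± 5.70 FPKM (SD, n = 3 each), with a log2 fold change of −0.45 (SE 0.27, 95% interval −1.08 to 0.17, adjusted p = 0.459 by limma). With each dog left out it was −0.69 (without CPP-Se replicate 1) to −0.17 (without CPP-Se replicate 2).

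NFE2, which pairs with small MAF proteins at globin and platelet genes, lies on chromosome 27 (1003816 to 1010264, plus strand, ENSCAFG00000030927). It had 668, 801 and 537 FPKM in control, against 628, 391 and 422 in CPP-Se dogs. In FPKM CPP-Se replicates 2 and 3 lay below all control dogs, and CPP-Se replicate 1 lay within their range. Per 1000000 reads on genes NFE2 had 833, 901 and 679 reads in control, against 715, 779 and 449 in CPP-Se dogs, so that only CPP-Se replicate 3 lay below all control dogs. The log2 fold change was −0.49 (SE 0.28, 95% interval −1.13 to 0.15, adjusted p = 0.431 by limma), with group means of 669 ± 132 and 480.5 ± 129 FPKM (SD, n = 3 each). Over the 6 dogs NFE2 had a Pearson r of 0.832 with the mean of the neutrophil markers (permutation p = 0.0472, adjusted p = 0.333 over 40 relations with marker lists) and a Spearman rho of 0.886 (permutation p = 0.0333, adjusted p = 0.444). Without the 2 farthest dogs r was 0.81, and between deviations from the group means it was 0.668. The neutrophil mean itself was higher in every control dog (6.84 to 7.37) than in every CPP-Se dog (6.43 to 6.70). The permutation over all dogs took no account of group. A part of neutrophils in the NFE2 level was not tested.

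GFI1B, a repressor in red cell and platelet precursors, lies on chromosome 9 (51380696 to 51392812, minus strand, ENSCAFG00000019877). Its FPKM were 35.5, 22.1 and 51.5 in control, against 27.4, 34.1 and 25.0 in CPP-Se dogs. In FPKM all 3 CPP-Se dogs lay inside the range of the control dogs, while per 1000000 reads on genes CPP-Se replicate 2 lay above it (113 against at most 109). The means were 36.4 ± 14.7 in control and 28.8 ± 4.75 in CPP-Se dogs (SD, n = 3 each). The log2 fold change was −0.26 (SE 0.31, 95% interval −0.97 to 0.45, adjusted p = 0.724 by limma), and with each dog left out −0.56 (without control replicate 2) to 0.03 (without control replicate 3).

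Of 20 other regulators tested, 1 was higher and 1 lower at an unadjusted p under 0.05 by limma, none was a DEG, and the median log2 fold change was −0.02. TCF3, the E protein that dimerizes with TAL1, was the higher one, at 7.96, 8.10 and 8.84 FPKM in control, against 11.9, 13.5 and 11.1 in CPP-Se dogs (log2 fold change 0.50, adjusted p = 0.228 by limma). FOXO3, a factor of late red cell maturation, was the lower one and the lowest of the list, at 17.9, 19.3 and 20.8 against 15.5, 12.3 and 14.0 FPKM (−0.45, adjusted p = 0.27 by limma). LDB1, the protein that holds the GATA1 complex together, had a log2 fold change of 0.09 with overlapping groups.

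GATA2, the early relative of GATA1, had the highest value of the partners, a log2 fold change of 1.05 (adjusted p = 0.525 by limma). It stood at 8.37 and 6.83 FPKM in CPP-Se replicates 1 and 3 and at 0.309 to 2.56 in the other dogs. The summed FPKM of the eosinophil, basophil and mast cell markers, cells that also use GATA factors, was 194 and 237 in these 2 dogs and 14.6 to 27.7 in the other 4. Most of that sum was ALOX15, at 129 and 198 FPKM in them, and not all markers followed, since CCR3, MS4A2 and IL5RA were lower in CPP-Se replicate 3 than in control replicate 3. GATA1 itself was not high in these dogs alone, since control replicates 1 and 2 held more. Of the 7 markers of that list tested, 3 were higher at an unadjusted p under 0.05 by limma, and ALOX15 had the highest log2 fold change (3.18) and IL5RA the lowest (−0.70). The median of the list was 1.14, and 0.67 without CPP-Se replicate 1, 0.70 without CPP-Se replicate 3 and 2.12 without CPP-Se replicate 2. Whether these cells had a part in the GATA2 level was not tested.

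**Figure D3:**
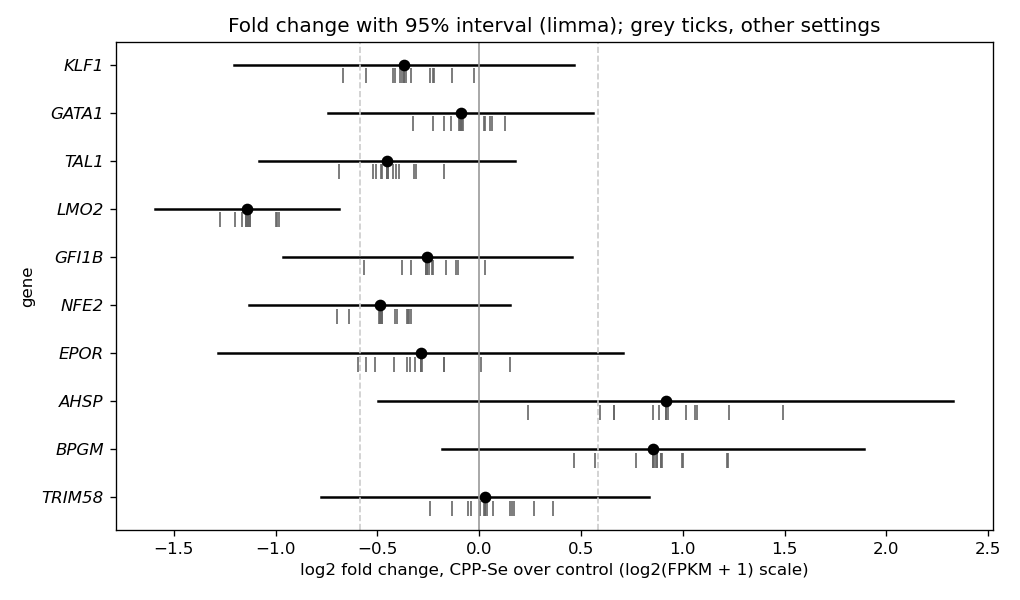
Log2 fold change of the 10 genes, CPP-Se over control on the log2(FPKM + 1) scale, with its 95% interval from limma (black), a dashed line at a fold change of 1.5 in each direction, and grey ticks for the value under each of 19 other settings. The interval of LMO2 (−1.59 to −0.69) lies wholly below 0, and the intervals of the other 9 genes include 0.

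EPOR, the erythropoietin receptor of red cell progenitors, lies on chromosome 20 (49945777 to 49950856, plus strand, ENSCAFG00000017411) and was the lowest of the 10 genes, with a mean of 114 reads per dog. Its FPKM were 7.59, 5.18 and 12.5 in control, against 7.79, 3.00 and 10.2 in CPP-Se dogs. In both groups replicate 3 was highest and replicate 2 lowest, and the groups overlapped. The means were 8.43 ± 3.74 and 7.01 ± 3.68 FPKM (SD, n = 3 each), with a log2 fold change of −0.29 (SE 0.43, 95% interval −1.28 to 0.71, adjusted p = 0.786 by limma). With single dogs left out its direction changed, to 0.15 without CPP-Se replicate 2 and 0.01 without control replicate 3, and it was −0.60 without CPP-Se replicate 3 and −0.56 without control replicate 2.

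Among 40 relations of the 10 genes with 4 marker lists, EPOR and the platelet list had the highest Pearson r. With the mean log2(FPKM + 1) of 15 platelet genes its Pearson r was 0.975 (permutation p = 0.00139, the smallest that 6 dogs allow, adjusted p = 0.0556 over the 40) and its Spearman rho 1.00 (permutation p = 0.00278, adjusted p = 0.111). Without the 2 dogs farthest from the median of the platelet mean r was 0.874, and between deviations from the group means it was 0.974. With the terminal erythroid list described below, r was 0.263 (permutation p = 0.611). No relation among the 40 passed the adjusted threshold, and 5 had an unadjusted permutation p under 0.05. The platelet list itself had 1 gene higher (SPARC, 0.70, the highest of the list) and 1 lower at an unadjusted p under 0.05 by limma, a median of −0.23 (with each dog left out, from −0.67 without CPP-Se replicate 3 to −0.03 without CPP-Se replicate 2), and summed FPKM of 1162 to 2198 against 739 to 2535. THBS1 was its lowest gene, at −0.69.

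Downstream of EPOR, the tested genes of its signalling pathway had a median log2 fold change of −0.40, which was −0.26 with a common FPKM sum, −0.27 with that sum taken without hemoglobin genes and −0.21 without CPP-Se replicate 2. Of 15 tested, 1 was higher and 3 were lower at an unadjusted p under 0.05 by limma, and none was a DEG. JAK2, the kinase bound to the receptor, had a log2 fold change of −0.40, and its substrates STAT5A and STAT5B had −0.10 and −0.25, all with overlapping groups. BCL2L1, the survival gene that STAT5 turns on in red cell precursors, was the highest, at 34.8, 44.6 and 33.0 FPKM in control, against 72.5, 53.9 and 91.3 in CPP-Se dogs (0.92, adjusted p = 0.176 by limma). All CPP-Se dogs lay above all control dogs. GAB2, an adaptor below the receptor, was the lowest, at 26.0, 22.9 and 28.4 against 11.7, 16.9 and 14.9 FPKM (−0.80, adjusted p = 0.162 by limma), and CBL (−0.65) and STAT3 (−0.48) were the other genes lower. The genes lower here were lower in the same dogs as the monocyte and neutrophil markers (medians of −0.82 and −0.75), and the part of those cells was not tested. BCL2L1 and GAB2 are in the study's own changed list, so their directions are not independent evidence.

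AHSP, the chaperone that holds free alpha-globin in solution, lies on chromosome 6 (16744879 to 16745745, minus strand, ENSCAFG00000016939). Its FPKM were 571, 1104 and 194 in control, against 608, 1329 and 1022 in CPP-Se dogs. Control replicate 3 was far below the other 5 dogs, and the control dogs alone spanned a 5.68-fold range. The means were 623 ± 457 and 986 ± 362 (SD, n = 3 each), with a log2 fold change of 0.92 (SE 0.61, 95% interval −0.50 to 2.33, adjusted p = 0.512 by limma). With each dog left out it was 0.24 (without control replicate 3) to 1.49 (without control replicate 2). Without CPP-Se replicates 1 and 2 it was 1.23 and 0.66, so its size rests on dogs of both groups.

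BPGM, the enzyme that makes bisphosphoglycerate and so lowers the oxygen affinity of hemoglobin, lies on chromosome 16 (13365566 to 13418432, minus strand, ENSCAFG00000003165). It had 24.8, 47.1 and 18.4 FPKM in control, against 49.6, 30.5 and 88.3 in CPP-Se dogs. Control replicate 2 and CPP-Se replicate 2 crossed the groups, and the other CPP-Se dogs lay above all control dogs. The means were 30.1 ± 15.0 and 56.1 ± 29.5 (SD, n = 3 each), with a log2 fold change of 0.85 (SE 0.45, 95% interval −0.18 to 1.89, adjusted p = 0.397 by limma).

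The overlap of the BPGM groups changed with the scaling of the libraries. Per 1000000 reads on genes BPGM had 45.9, 78.5 and 34.6 reads in control, against 83.8, 90.0 and 139 in CPP-Se dogs, so every CPP-Se dog lay above every control dog. With the FPKM scaled to a common sum per dog its log2 fold change was 1.00 (unadjusted p = 0.0159, adjusted p = 0.4 by limma). Under the other 3 scalings of the FPKM, a common sum without hemoglobin genes, the median of ratios and the upper quartile, the groups overlapped. The direction was above 0 under all 19 alternatives, from 0.47 (without CPP-Se replicate 3) to 1.22. Some of these alternatives change only the test and not the log2 fold change, so they could not turn its direction. The adjusted p under the 19 was 0.198 to 0.669 by limma or the negative binomial model.

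TRIM58, a ubiquitin ligase that acts in the loss of the nucleus, lies on chromosome 14 (1576272 to 1598487, minus strand, ENSCAFG00000001226). It had 11.5, 20.9 and 12.99 FPKM in control, against 16.5, 8.99 and 22.2 in CPP-Se dogs. In FPKM the CPP-Se dogs enclosed the control dogs. Per 1000000 reads on genes TRIM58 had 25.3, 41.4 and 29.0 reads in control, against 33.0, 31.6 and 41.7 in CPP-Se dogs, and the groups overlapped without enclosing. The means were 15.1 ± 5.03 and 15.9 ± 6.63 FPKM (SD, n = 3 each). The log2 fold change was 0.03 (SE 0.35, 95% interval −0.78 to 0.83, adjusted p = 0.975 by limma), and with each dog left out −0.24 (without CPP-Se replicate 3) to 0.36 (without CPP-Se replicate 2).

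The wider set of red cell genes was split. Of 41 tested genes of red cell structure, heme synthesis and reticulocyte maturation (the terminal erythroid list), 6 were higher and 3 lower at an unadjusted p under 0.05 by limma, none was a DEG, and the median log2 fold change was 0.21. The direction of this median changed to −0.003 without control replicate 3 and −0.04 without CPP-Se replicate 3, and it was 0.52 without CPP-Se replicate 2. The higher ones were TMCC2 (1.87, the highest), UBE2O (1.11), RHAG (1.11), E2F2 (1.08), SLC4A1 (1.02) and ANK1 (0.77). All but SLC4A1 are in the study's changed list, so they are not independent evidence of a direction. UBE2O, the ubiquitin enzyme that clears ribosomes from reticulocytes, had 22.9, 28.4 and 21.7 FPKM in control, against 52.1, 41.5 and 70.9 in CPP-Se dogs without overlap. The lower ones were XK (−0.81, the lowest), the membrane protein GYPC (−0.63) and catalase, CAT (−0.49). ALAS2, which starts heme synthesis in red cells, had a log2 fold change of −0.07. The summed FPKM of the list was 5731 to 10687 in the control dogs and 4297 to 10588 in the CPP-Se dogs.

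**Figure D4:**
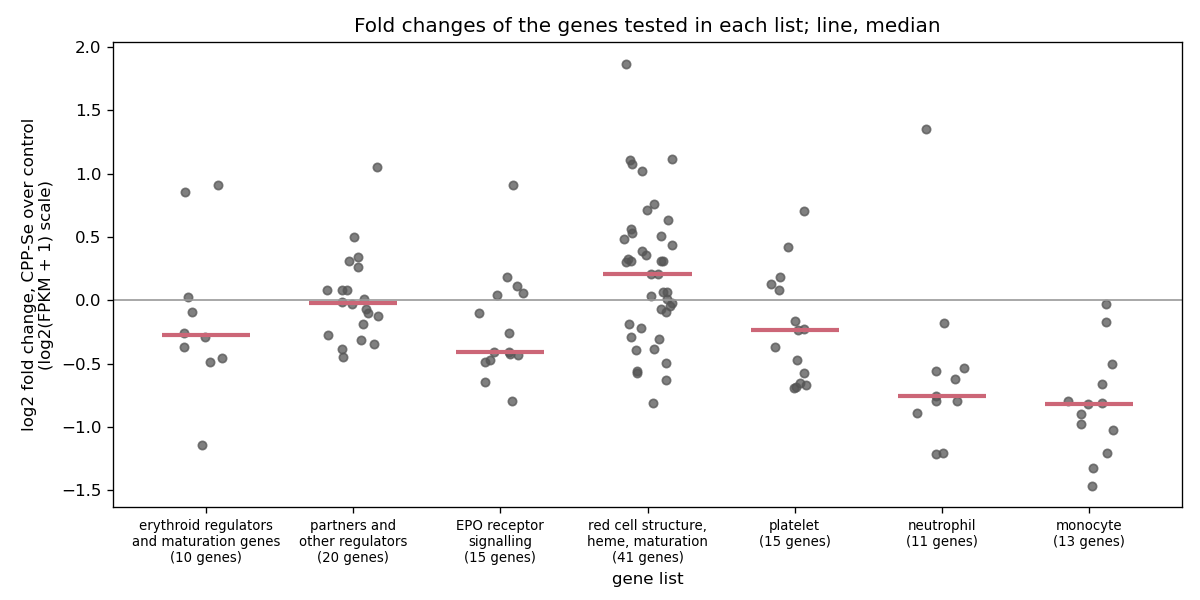
Log2 fold changes (y axis, CPP-Se over control) of the genes tested in each list (x axis), 1 point per gene with spread along x only to separate points, and a red line at each median. The 10 regulators and maturation genes have a median of −0.27, the terminal erythroid list 0.21 (−0.04 to 0.52 with each dog left out), and the neutrophil and monocyte lists −0.75 and −0.82.

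The terminal erythroid list also gave a scale for red cell RNA in each dog. Its mean log2(FPKM + 1) was 4.77, 5.22 and 4.58 in control, against 5.05, 4.54 and 5.61 in CPP-Se dogs, lowest and highest in CPP-Se replicates 2 and 3, and the groups overlapped (difference 0.21, exact permutation p = 0.7). The mean includes 5 genes of the study's changed list, all higher in the CPP-Se dogs, and a higher mean moves every gene towards lower. Relative to that mean, 4 of the 10 genes did not overlap between the groups, beside 7.14% of all genes tested. KLF1, LMO2 and NFE2 were lower in the CPP-Se dogs (5.85% of all genes) and BPGM was higher (1.29% of all genes). On this relative log2 scale the differences were −0.58 for KLF1, −1.35 for LMO2, −0.70 for NFE2 and 0.64 for BPGM, each with an exact permutation p of 0.1, the smallest that 3 dogs against 3 allow, and 0.25 after adjustment over the 10 genes.

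KLF1 minus the list mean was 0.25, 0.64 and 0.70 in control, against 0.05, −0.21 and 0.01 in CPP-Se dogs, while its FPKM overlapped. BPGM minus the list mean was −0.08, 0.37 and −0.30 in control, against 0.61, 0.43 and 0.87 in CPP-Se dogs. Per 100000 hemoglobin reads, BPGM had 9.43, 14.8 and 7.02 reads in control, against 15.3, 24.6 and 24.9 in CPP-Se dogs without overlap, while KLF1, LMO2 and NFE2 overlapped, so the separation of those 3 depends on which red cell transcripts set the scale.

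The 10 genes did not vary as 1 group from dog to dog. Of their 45 pairs, 29 had a Pearson r above 0 and 16 below 0 over the 6 dogs, with a median of 0.242. KLF1 and TRIM58 were the most alike (r = 0.909), followed among the maturation genes by BPGM and TRIM58 (0.768). GFI1B and BPGM were the most opposed (−0.856), and GFI1B was also opposed to AHSP (−0.784). Such values describe 6 libraries that share their scaling, and they are not tested.

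**Figure D5:**
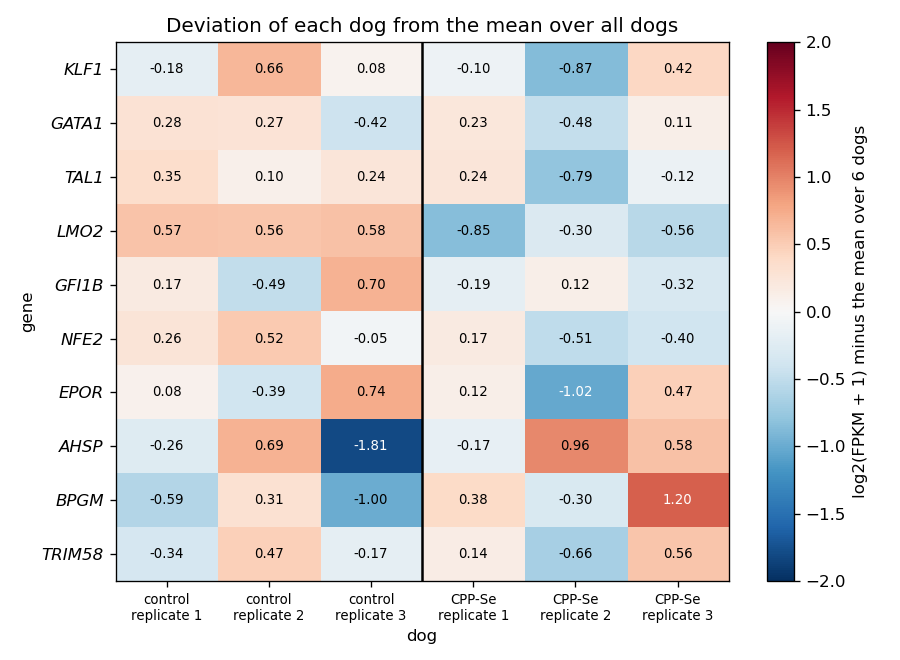
Deviation of each dog (columns, control left and CPP-Se right of the line) from the mean over 6 dogs of log2(FPKM + 1) for each gene (rows), in red above and in blue below the mean. On this FPKM scale CPP-Se replicate 2 is below the mean for 8 of the 10 genes, against 4 of the 10 in reads per 1000000 reads on genes, and LMO2 is above the mean in every control dog and below it in every CPP-Se dog, which does not hold for CPP-Se replicate 2 on the second scale.

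TRIM58 and BPGM had the highest Pearson r with the terminal erythroid list. For TRIM58, Pearson r with the list mean was 0.919 (permutation p = 0.0111, adjusted p = 0.185), Spearman rho was 0.943 (permutation p = 0.0167, adjusted p = 0.333), and r was 0.886 without the 2 farthest dogs. For BPGM, r was 0.928 (permutation p = 0.0139, adjusted p = 0.185), rho was 0.771 (permutation p = 0.103, adjusted p = 0.457), and r without the 2 farthest dogs was 0.958. Between deviations from the group means r was 0.948 for TRIM58 and 0.985 for BPGM. GFI1B ran the other way, with r = −0.796 (permutation p = 0.05, adjusted p = 0.333), rho = −0.771 (permutation p = 0.103, adjusted p = 0.457) and −0.988 without the 2 farthest dogs.

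Among 8130 other tested genes with a symbol, the 3 most like each of the 10 had Pearson r between 0.967 and 0.998 over the 6 dogs, the top values of a search over all of them. Those of TRIM58 included GPX1 (0.994) and VDAC3 (0.979), and those of KLF1 were PRICKLE2, ELK4 and the blood group gene KEL. LMO2 was nearest to PTPN1 (0.998), SERPINA1 (0.996) and RASA1 (0.994), which like LMO2 separate the groups. NFE2 was nearest to TUBG1, CALHM6 and ICE2, GATA1 to ARPIN, TRPV4 and FAM13B, and TAL1 to SLC35E4, SRXN1 and ARPC5. GFI1B was nearest to SUDS3, BAZ2A and TXLNG, EPOR to YPEL5, FHL1 and GSR, AHSP to CHD8, TCOF1 and LBHD1, and BPGM to HBS1L, CMAS and NCR3.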

How the data were processed

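Whole blood RNA of 6 dogs was sequenced as poly(A) libraries made with the NEBNext Ultra kit, which does not mark strand. The authors aligned to the Ensembl release 100 dog genome and deposited FPKM per gene. The submitters' processing notes name CASAVA 2.19, fastp 0.19.7, HISAT2 2.0.5 and featureCounts 1.5.0-p3. The library size behind the FPKM, and the handling of reads shared by genes, are not given in the sources used here. The product of FPKM and gene length, scaled by a library size inferred per dog from the spacing of the low values, gave whole numbers (tolerance 0.05 reads) for 100% of genes, and these were taken as reads. Mean reads per dog had a median of 80.7 over the genes tested, and precision is set by 3 dogs per group. Libraries are separate dogs by their labels.

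The deposited FPKM were tested on the log2(FPKM + 1) scale in limma 3.58.1 (R 4.3.3, lmFit and eBayes with an intensity trend). This pseudocount understates the fold change of low genes. Exact permutation tests compared single measures, and tables and figures were made with scipy 1.17.1, matplotlib 3.10.9, pandas 2.3.3 and numpy 2.4.6 in Python 3.11.15. The tests were tried on simulated data. The 10 genes, the gene lists and the tests were chosen with earlier results of these data known. The genes named are the 10, the highest and lowest log2 fold change of each list, the 3 genes most like each of the 10, and, chosen after their values were seen, list genes with an unadjusted p under 0.05 or a known role. The alternatives were another pseudocount, other filters and scalings, other eBayes settings, replicate number as a block, limma-voom and a negative binomial model (both on the recovered reads), and each dog left out in turn. limma-voom with sample quality weights was chosen after seeing the data. A few genes under this naming rule are not reported here. Promoter and protein sequences were not used here.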

Additional observations from a re-analysis of the deposited data

How the results depend on the processing

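The log2 fold change of each of the 10 genes under 19 alternatives gave 190 values. Of these, 176 kept their direction and their side of the threshold, 12 changed direction and 2, both of LMO2, passed the threshold. Other filters, other eBayes settings and the replicate block leave the log2 fold change itself unchanged, so its direction could not change there. The median-of-ratios scaling hardly moved it. LMO2 was a DEG in limma-voom with sample quality weights, chosen after seeing the data (−1.20, adjusted p = 0.0416), and in the negative binomial model (−1.14, adjusted p = 0.000696), so 1 of the 10 genes was a DEG in each. Under the other alternatives its adjusted p reached 0.459 in limma. The number of DEGs over all genes was 3 (0 higher, 3 lower). It was 0 with a pseudocount of 0.1 and 0 without a filter, 1 with a mean of at least 5 FPKM, 14 with a common FPKM sum (10 higher, 4 lower), 1 in limma-voom, 156 with quality weights (52 higher, 104 lower), 434 in the negative binomial model (169 higher, 265 lower), and 0 to 14 with each dog left out. A common FPKM sum moved the median log2 fold change of all genes to 0.13, and to 0.12 without the hemoglobin genes.

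At an unadjusted p under 0.05, the genes of the 10 that were higher numbered 2 with a common FPKM sum (AHSP and BPGM), 1 with that sum taken without hemoglobin genes, 1 with quality weights, and 0 to 2 with each dog left out, and those lower 1 to 3. Over all genes tested, in both directions, the share at that limit was 9.35%, 12.9%, 20.5% and 9.76% to 16.7% in these settings, beside 16%. The genes without overlap numbered 1 higher with a common FPKM sum, and with each dog left out 0 to 2 higher and 1 to 3 lower. Without control replicate 2 the higher ones were AHSP and BPGM and the lower ones GFI1B, LMO2 and TAL1. The lower ones were GATA1, LMO2 and NFE2 without control replicate 3, and LMO2, NFE2 and TAL1 without CPP-Se replicate 1. BPGM was higher without CPP-Se replicate 2. Over all genes tested the share lower without overlap was 12.6%, and with 1 dog left out it was 15.7% to 19.1%. The share higher without overlap was 10.4%, with a common FPKM sum 10.6%, and with 1 dog left out 14.0% to 17.3% (15.5% without control replicate 2 and 16.1% without CPP-Se replicate 2).

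The directions that changed were those of small values. GATA1 was at 0.062 with a common FPKM sum, at 0.053 when the hemoglobin genes were left out of it, and at −0.32 to 0.13 with each dog left out. The ranges with each dog left out were −0.24 to 0.36 for TRIM58, −0.56 to 0.029 for GFI1B, −0.60 to 0.15 for EPOR, −0.33 to 0.050 for the median of the 10 genes and −0.037 to 0.52 for the median of the terminal erythroid list. The cause was not tested.

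Replicate numbers did not pair the dogs: deviations of same-numbered dogs from their group means correlated at 0.016, −0.09 and −0.043. With replicate number as a block (replicate block), 1 gene was a DEG over all genes tested, none of them among the 10.

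With 3 dogs per group an exact permutation p cannot fall below 0.1, and the 95% intervals of 9 of the 10 genes hold 0 and reach beyond a 1.5-fold change in at least one direction. EPOR and LMO2 rest on 67 to 204 and 60 to 210 reads per dog.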

Other observations

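AHSP was compared with the most abundant hemoglobin gene of the table, a choice made after the values were seen. This gene, ENSCAFG00000032615, carries a hemoglobin description and no symbol. AHSP FPKM per 1000 FPKM of it were 4.22, 6.65 and 1.37 in control, against 3.85, 21.5 and 5.68 in CPP-Se dogs (replicates 1, 2 and 3), a 15.7-fold range over the 6 dogs. The gene itself spanned a 2.91-fold range in FPKM, lowest in CPP-Se replicate 2. That dog had the highest AHSP of the 6 dogs, both in FPKM (1329) and per 1000000 reads on genes (1052). AHSP reads per BPGM read were 11.7 in it and 2.82 to 6.28 in the other dogs. The groups overlapped in both ratios (exact permutation p = 0.5 and 1, two-sided).

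Markers of lymphocytes lay mostly higher in the CPP-Se dogs. The median log2 fold change was 0.74 over 17 T cell genes (CD6 highest at 1.23, CD4 lowest at −0.61), 0.62 over 11 B cell genes (BANK1 lowest at −0.12) and 0.80 over 11 NK and cytotoxic genes (TBX21 highest at 1.55, EOMES lowest at 0.40). Without CPP-Se replicate 3 the T cell median was 0.475. At an unadjusted p under 0.05 by limma 8, 5 and 5 of these were higher, and none of them was a DEG. CD4 was the 1 gene of the T cell list lower at that limit (adjusted p = 0.297 by limma). It had 1041 ± 204 FPKM in control, against 678 ± 102 in CPP-Se dogs (SD, n = 3 each), without overlap. CD3E of the same list had 27.4 ± 12.5 FPKM in control (SD, n = 3). Whether CD4 came mainly from T cells was not tested. Of these lists, 6, 1 and 4 genes are in the study's own changed list. MMP9 had the highest value among the neutrophil markers (1.35) and CXCR2 the lowest (−1.21).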
